A study of Homo sapiens with 48 samples.

Results

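The 10 genes described here are known markers and regulators of neuroendocrine cells, or take part in the storage and release of secretory vesicles: CHGA, CHGB, SCG2, SCG5, SYP, SYT4, SCGN, ENO2, INSM1 and REST. They were taken by symbol from the 61815 genes counted in 22Rv1, a human castration-resistant prostate carcinoma line that carries a mutated full-length androgen receptor and truncated receptor variants. The list was drawn up with earlier results of these data known. SCGN and SYT4 were selected on their SNX631 fold changes in lines with an active kinase, so their SNX631 effects in those lines are given as values with no test. Vehicle libraries of those lines are part of the same fold changes. Tests of SCGN and SYT4 that use these vehicle libraries are thus not independent of the selection.

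The study asked how inhibition of the Mediator kinases CDK8 and CDK19 changes gene expression, and whether the change needs their kinase activity. Parental cells are named Rv1-WT, and Rv1-Luc names a subline transduced with a lentivirus for firefly luciferase that also gives blasticidin resistance. The 4 dKO derivatives descend from a CRISPR/Cas9 double knockout of CDK8 and CDK19: dKO-8 received active CDK8 and dKO-19 active CDK19, whereas dKO-8M and dKO-19M received a kinase-dead mutant of the respective gene. All 4 share the double knockout. dKO-8 and dKO-8M were made from cells that had first received a lentiviral vector with no insert, and dKO-19 and dKO-19M from the double knockout directly, so the kinase and this step cannot be told apart between the pairs. Cultures of Rv1-WT and Rv1-Luc had fetal bovine serum (FBS) or charcoal-stripped serum (CSS), from which androgen has been removed. All dKO cultures were in FBS. For 72 hours cultures received either vehicle (0.1% DMSO) or 500 nM of SNX631, which inhibits CDK8 and CDK19, in 16 groups of 3 libraries. CSS cultures had also spent a passage in CSS and were seeded more densely, which cannot be told apart from androgen depletion.

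Library totals ran from 13.2 to 31.5 M counts, and those of Rv1-WT (13.2 to 18.2 M) and Rv1-Luc (19.5 to 27.3 M) did not overlap. At least 8 of 10 luminal prostate markers had a mean of 1 CPM (counts per 1000000 counts) or more in each line, and 4 basal markers summed to 2.56 CPM at most in any library. Plasma and B cell markers, 10 genes, summed to between 4.85 and 34.7 CPM in Rv1-Luc libraries and to 1.83 CPM at most elsewhere, and the immunoglobulin gene IGKC was at 0 in all libraries outside Rv1-Luc. The part of these transcripts and of depth in the Rv1-Luc results was not tested. Replicate 1 of dKO-19M under vehicle stood farthest from its own group: the chi-square of its counts over genes, divided by the degrees of freedom, was 17.7 and 17.1 against the other libraries there, and the median over all 48 replicate pairs was 2.10. The RNA was extracted in bulk, so fewer cells of a type and less RNA per cell cannot be told apart.

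Neuroendocrine cells store peptides in dense-core vesicles. Granins such as chromogranin A, chromogranin B and secretogranin II are packed into these vesicles as bulk cargo and peptide precursors, synaptophysin sits in the membrane of small vesicles, and secretagogin and some synaptotagmins bind calcium near the release machinery. In most other cells the repressor REST, also called NRSF, holds neuronal genes silent, and its loss or altered splicing accompanies neuroendocrine change in prostate cancer. INSM1 is a transcription factor of neuroendocrine differentiation, and ENO2 encodes neuron-specific enolase, a glycolytic enzyme used as a serum marker.

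Promoters are shown for the granin with the widest gap between lines and for SYT4 and SCGN, whose SNX631 values set them apart. Each run is the 250 bases before the RefSeq start site, read 5′ to 3′ on the gene's strand in GRCh38.p14, and capitals mark the core site TGACG of the cyclic AMP response element, read on either strand, or its full palindrome TGACGTCA.
CHGA, chr14:92922900-92923149, plus strand: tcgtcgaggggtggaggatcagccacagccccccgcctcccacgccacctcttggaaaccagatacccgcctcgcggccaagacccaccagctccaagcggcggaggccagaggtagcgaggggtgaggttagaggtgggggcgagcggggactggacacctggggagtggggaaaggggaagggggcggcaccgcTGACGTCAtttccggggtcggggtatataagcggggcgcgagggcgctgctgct
SYT4, chr18:43277491-43277740, minus strand: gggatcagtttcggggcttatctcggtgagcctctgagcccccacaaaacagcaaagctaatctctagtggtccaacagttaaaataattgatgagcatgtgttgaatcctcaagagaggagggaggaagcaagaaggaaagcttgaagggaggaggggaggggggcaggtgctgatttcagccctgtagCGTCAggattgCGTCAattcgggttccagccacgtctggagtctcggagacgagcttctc
SCGN, chr6:25651965-25652214, plus strand: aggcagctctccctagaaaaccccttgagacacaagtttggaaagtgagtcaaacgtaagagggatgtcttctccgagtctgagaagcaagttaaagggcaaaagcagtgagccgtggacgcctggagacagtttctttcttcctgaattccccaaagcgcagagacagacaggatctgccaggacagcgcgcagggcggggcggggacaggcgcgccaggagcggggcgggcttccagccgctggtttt
The CHGA promoter held the palindrome TGACGTCA with its first base 54 bases before the start site, which contains TGACG on both strands and which 1.65% of 35116 RefSeq promoters of this length held. SYT4 held the core site on the opposite strand (CGTCA) 60 and 49 bases before the start site. The SCGN promoter had no TGACG. It held GGACAG, 6 bases of the REST motif, on the given strand 68 and 45 bases before the start site. TGACG was found in 3 of the 8 promoters matched to members (CHGA, SCG5 and SYT4), against 21.2% of all promoters, and GGACAG in 2 (SCGN and the downstream promoter of REST), against 17.2%. A longer stretch of the REST motif, TTCAGCACC, was in none of the 8 and in 0.288% of all promoters, counting both strands. A match is a description of these letters only. RefSeq promoters were matched for 7 members, with 2 for REST, and CHGB, SCG2 and INSM1 were not matched.

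In the GENCODE v29 annotation of GRCh38, CHGA lies at chr14:92923080-92935293 on the plus strand and CHGB at chr20:5911430-5925361 on the plus strand. SYT4 lies at chr18:43267878-43277650 on the minus strand, SCGN at chr6:25652201-25701783 on the plus strand and SYP at chrX:49187804-49200259 on the minus strand. ENO2, at chr12:6913745-6923698 on the plus strand, overlaps LRRC23 on the same strand, and REST, at chr4:56907876-56966678 on the plus strand, overlaps NOA1 on the opposite strand. Secretogranin genes SCG2 (chr2:223596940-223602503, minus) and SCG5 (chr15:32641676-32697098, plus) had fractional counts in 39.6% and 75% of libraries, so their reads were shared with other genes or positions. The readthrough transcript ARHGAP11A-SCG5 had 344 to 800 counts in the same libraries, and SCG5 values are uncertain. INSM1 lies at chr20:20368121-20370949 on the plus strand.

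Levels below are CPM after TMM scaling, as the mean ± SD of 3 libraries. Scaled further to exon length, the levels in Rv1-WT in FBS under vehicle were ordered as follows, in CPM per kilobase: ENO2 at 30.95, SYT4 at 27.7, SYP at 12.2, REST at 8.32, CHGB at 4.20, SCGN at 0.834, SCG2 at 0.743, CHGA at 0.736, SCG5 at 0.261 and INSM1 at 0.0155. The ubiquitous enolase ENO1 stood at 212 on that scale. Of the 10 members, 9 passed the filter on low counts and INSM1 did not, and CHGA and SCG5 passed it through Rv1-WT, where they are high, so their differences between Rv1-WT and other lines are values with no test.

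**Figure D1:**
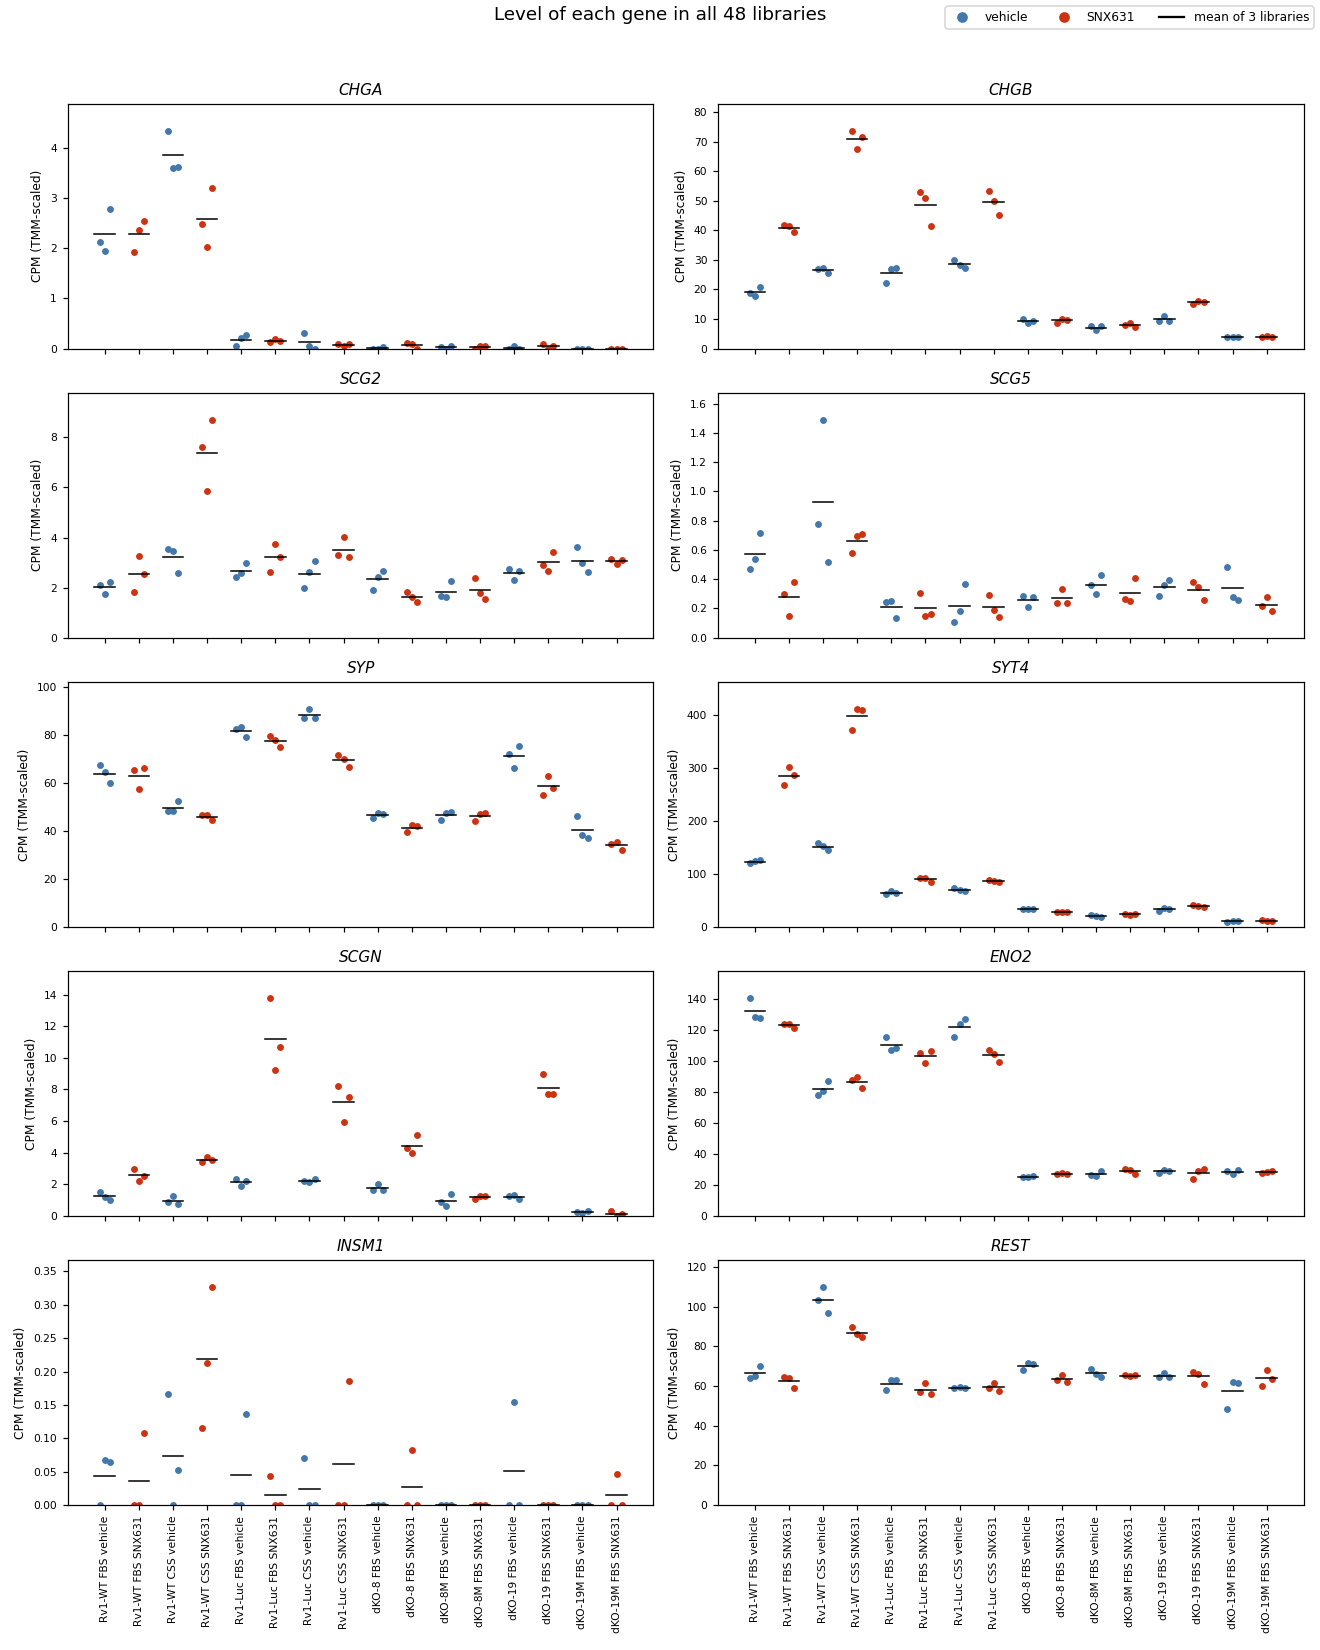
Level of the 10 genes in each of the 48 libraries, in TMM-scaled CPM on a linear axis from 0 for each gene, by line, serum and treatment. Points are libraries (blue for vehicle, red for SNX631) and bars the means of 3. CHGB reached 67.7 to 73.6 CPM in Rv1-WT in CSS with SNX631 and lay between 3.75 and 4.12 CPM in dKO-19M, and CHGA was at 0 in the 6 dKO-19M libraries.

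CHGA, the precursor of several regulatory peptides, was highest in the parental line. In FBS under vehicle the 3 Rv1-WT libraries read 2.12, 1.94 and 2.79 CPM, and with SNX631 1.93, 2.36 and 2.53 CPM. In CSS they read 4.34, 3.59 and 3.63 CPM under vehicle and 2.49, 2.03 and 3.21 CPM with SNX631. Vehicle cultures in CSS were thus the highest group, and the other 3 Rv1-WT groups overlapped. All 36 libraries of the other lines lay between 0 and 0.317 CPM, with 0 to 9 counts, below every Rv1-WT library, and the 24 dKO libraries held at most 3 counts each. CHGA was lower in Rv1-Luc than in Rv1-WT in FBS under vehicle (0.174 ± 0.120 against 2.28 ± 0.448 CPM, log2 difference -3.70 ± 0.419 SE, a value with no test, with 3 of 3 libraries below all Rv1-WT libraries). The Rv1-Luc libraries of that comparison held 1, 5 and 6 counts. The CSS value in Rv1-WT under vehicle (0.75 ± 0.268, edgeR FDR 0.0176) and the SNX631 value in Rv1-WT in CSS (-0.58 ± 0.259, edgeR FDR 0.0916) did not pass the limit of 0.01. For CHGA in CSS the FDR was 0.00118 when only the groups compared were fitted and 0.00935 without Rv1-Luc CSS vehicle replicate 1, both under that limit.

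CHGB, the second chromogranin, rose with SNX631 in 5 of the 6 settings with an active kinase, the most of the members tested there. A gene was called where the FDR of edgeR's quasi-likelihood test, adjusted over all 20009 genes tested, was under 0.01 and the fold change over 1.5. In Rv1-WT in FBS the vehicle libraries read 18.6, 17.7 and 20.8 CPM and the SNX631 libraries 41.7, 41.5 and 39.6 CPM. In CSS the corresponding values were 26.8, 27.3 and 25.5 CPM and 73.6, 67.7 and 71.6 CPM. No SNX631 library overlapped the vehicle libraries in either serum. The log2 change was 1.10 ± 0.0813 SE in FBS (edgeR FDR 1.41e-16) and 1.42 ± 0.0722 in CSS (edgeR FDR 1.07e-23).

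Rv1-Luc cultures showed the same direction for CHGB. They read 22.1, 27.0 and 27.3 CPM under vehicle and 52.8, 50.8 and 41.6 CPM with SNX631 in FBS (0.93 ± 0.0704, edgeR FDR 2e-16), and 30.1, 28.4 and 27.3 CPM and 53.4, 50.04 and 45.2 CPM in CSS (0.79 ± 0.0701, edgeR FDR 7.69e-14). Treated and vehicle libraries were apart in both sera.

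Among lines with a single active kinase, the CHGB response was seen in dKO-19 and not in dKO-8. Under vehicle the CDK19 transcript stood at 510 CPM in dKO-19 and the CDK8 transcript at 68.7 CPM in dKO-8. In FBS under vehicle, Rv1-WT and Rv1-Luc held CDK19 at 149 and 116 CPM, and CDK8 at 26.8 and 28.5 CPM. The kinase not put back still read 27.7 CPM for CDK8 in dKO-19 and 103 CPM for CDK19 in dKO-8. The paper reports more CDK19 protein in dKO-19, and less CDK8 protein in dKO-8, than in parental cells, so CDK8 protein and transcript in dKO-8 differ from parental cells in opposite directions. It describes similar SNX631 effects in both lines over the responding genes. The part of kinase level in the CHGB difference was not tested. The dKO-19 libraries read 9.38, 10.8 and 9.39 CPM under vehicle and 15.1, 16.04 and 15.8 CPM with SNX631 (0.67 ± 0.0942, edgeR FDR 9.38e-08). The dKO-8 libraries read 9.94, 8.73 and 9.22 CPM and 8.80, 10.0 and 9.62 CPM, which overlap (0.03 ± 0.101, 95% interval -0.17 to 0.22, edgeR FDR 0.915). The difference between these effects was 0.64 ± 0.138 (edgeR FDR 0.00152), with 3 of 3 treated libraries above all vehicle libraries in dKO-19 and 1 of 3 in dKO-8. In dKO-8M the values were 7.62, 6.18 and 7.48 CPM under vehicle and 7.98, 8.56 and 7.42 CPM with SNX631, and in dKO-19M 3.90, 3.95 and 3.94 CPM and 3.99, 4.12 and 3.75 CPM. Neither kinase-dead line passed the test (0.17 ± 0.108 with edgeR FDR 0.654, and 0.01 ± 0.140 with edgeR FDR 0.995). Tested against a 1.5-fold change with glmTreat, neither the CHGB change in dKO-19 nor its difference from dKO-8 passed (FDR 1 for both). The SNX631 effect in dKO-19 exceeded that in dKO-19M by 0.66 ± 0.169 (edgeR FDR 0.00514), a call that was lost when any of 8 of the 12 libraries was left out, with FDR between 0.0101 and 0.0216.

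Ordered by level, CHGB was highest in Rv1-WT in CSS with SNX631 (70.97 ± 3.03 CPM) and lowest in dKO-19M under vehicle (3.93 ± 0.0281 CPM). The 8 groups of Rv1-WT and Rv1-Luc all stood above the 8 dKO groups. Neighbours in that order overlapped among the 3 next highest groups (Rv1-Luc with SNX631 in CSS and FBS, and Rv1-WT with SNX631 in FBS), between Rv1-WT in CSS and Rv1-Luc in FBS under vehicle, between dKO-19 under vehicle and both dKO-8 groups, and within each kinase-dead line.

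SCG2, the precursor of secretoneurin, was called for SNX631 in Rv1-WT in CSS and in no other setting. There the vehicle libraries read 3.56, 3.47 and 2.59 CPM and the SNX631 libraries 7.63, 5.86 and 8.69 CPM, which do not overlap (1.21 ± 0.166, edgeR FDR 4.33e-08). In FBS the Rv1-WT values were 2.12, 1.74 and 2.21 CPM and 1.81, 3.25 and 2.53 CPM, which overlap (0.30 ± 0.229, edgeR FDR 0.445). The difference between sera, 0.91 ± 0.286, did not pass the limit (edgeR FDR 0.0647). In Rv1-Luc the SNX631 value was 0.28 ± 0.176 in FBS (edgeR FDR 0.299) and 0.49 ± 0.180 in CSS (edgeR FDR 0.041). Group means of SCG2 in the other 36 libraries lay between 1.62 CPM (dKO-8 with SNX631) and 3.51 CPM (Rv1-Luc in CSS with SNX631), and nearly all neighbours in order overlapped. The dKO-8 libraries read 1.92, 2.41 and 2.67 CPM under vehicle and 1.84, 1.62 and 1.41 CPM with SNX631, with no overlap, but the value of -0.52 ± 0.210 did not pass (edgeR FDR 0.0916). SCG5, which encodes the 7B2 chaperone of prohormone convertase 2, had 2 to 24 counts in a library, from 0.106 to 1.49 CPM, and no SNX631 call.

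SYP, the vesicle membrane protein synaptophysin, was expressed in all lines at group means between 34.0 CPM (dKO-19M with SNX631) and 88.2 CPM (Rv1-Luc in CSS under vehicle). SNX631 never moved it past the fold limit. Values past the FDR limit but short of 1.5-fold were -0.35 ± 0.0559 in Rv1-Luc in CSS (edgeR FDR 1.98e-06) and -0.28 ± 0.0578 in dKO-19 (edgeR FDR 0.000169). In dKO-19 the libraries read 71.9, 66.1 and 75.2 CPM under vehicle and 55.1, 62.8 and 57.8 CPM with SNX631, with no overlap. The kinase-dead dKO-19M had a value of -0.25 ± 0.0631 (edgeR FDR 0.0185), and the effects of dKO-19 and dKO-19M differed by -0.03 ± 0.0857 (95% interval -0.20 to 0.14, edgeR FDR 0.889). In dKO-19M the vehicle libraries read 46.1, 38.2 and 36.8 CPM, the first being the library farthest from its group. With SNX631 they read 34.6, 35.4 and 32.2 CPM. Both the dKO-19M value and the difference include that library, and values without it are not given.

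SYT4 encodes synaptotagmin 4, a vesicle protein of the synaptotagmin family, and its SNX631 values are a description. In Rv1-WT the libraries read 119, 124 and 126 CPM under vehicle and 268, 301 and 287 CPM with SNX631 in FBS, and 158, 152 and 144 CPM and 372, 411 and 409 CPM in CSS. The log2 values were 1.21 ± 0.0489 and 1.39 ± 0.0477. In each serum all treated libraries stood above the vehicle libraries. In Rv1-Luc the values were smaller: 62.4, 67.4 and 63.5 CPM against 92.4, 92.7 and 85.2 CPM in FBS (0.48 ± 0.0509), and 73.0, 69.0 and 67.3 CPM against 88.7, 85.7 and 83.7 CPM in CSS (0.30 ± 0.0512). The effect in Rv1-Luc in FBS was 0.73 lower on the log2 scale than in Rv1-WT (-0.73 ± 0.0705, a value with no test).

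The dKO lines held SYT4 at lower levels, with SNX631 values of both signs. dKO-19 read 30.6, 35.1 and 34.3 CPM under vehicle and 41.7, 39.0 and 37.1 CPM with SNX631 (0.24 ± 0.0594), whereas dKO-8 read 33.0, 33.8 and 33.0 CPM and 28.4, 27.6 and 27.5 CPM (-0.26 ± 0.0609). Treated and vehicle libraries did not overlap in either line. In the kinase-dead lines, where the effect was tested, SYT4 did not pass: 21.8, 20.9 and 19.1 CPM against 23.2, 22.8 and 23.3 CPM in dKO-8M (0.16 ± 0.0661, edgeR FDR 0.384), and 9.57, 11.1 and 11.5 CPM against 12.4, 11.1 and 10.7 CPM in dKO-19M (0.09 ± 0.0821, edgeR FDR 0.671). From highest to lowest, the 16 group means of SYT4 fell from 397 ± 21.8 CPM in Rv1-WT in CSS with SNX631 to 10.7 ± 0.991 CPM in dKO-19M under vehicle. Every Rv1-WT library was above every Rv1-Luc library, and every Rv1-Luc library above every dKO library.

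SCGN encodes secretagogin, a calcium-binding protein of endocrine cells that interacts with the release machinery, and its SNX631 values with an active kinase are likewise a description. The Rv1-WT libraries read 1.53, 1.21 and 0.973 CPM under vehicle and 2.96, 2.21 and 2.53 CPM with SNX631 in FBS (1.05 ± 0.255), and 0.889, 1.24 and 0.725 CPM and 3.41, 3.73 and 3.53 CPM in CSS (1.92 ± 0.243). In Rv1-Luc they read 2.35, 1.89 and 2.18 CPM and 13.8, 9.20 and 10.7 CPM in FBS (2.38 ± 0.157), and 2.18, 2.17 and 2.31 CPM and 8.19, 5.94 and 7.50 CPM in CSS (1.70 ± 0.166). All treated libraries were above the vehicle libraries of their line and serum. The dKO-19 libraries went from 1.22, 1.34 and 1.05 CPM to 8.95, 7.72 and 7.69 CPM (2.76 ± 0.189) and those of dKO-8 from 1.63, 1.99 and 1.61 CPM to 4.26, 3.98 and 5.09 CPM (1.35 ± 0.189), without overlap. In dKO-8M the values were 0.850, 0.634 and 1.39 CPM and 1.05, 1.25 and 1.28 CPM (0.37 ± 0.273, edgeR FDR 0.740). The dKO-19M libraries held 6, 5 and 8 counts under vehicle and 6, 0 and 2 counts with SNX631, so 2 treated libraries were under the floor of 3 counts and no fold change is given (edgeR FDR 0.553).

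**Figure D2:**
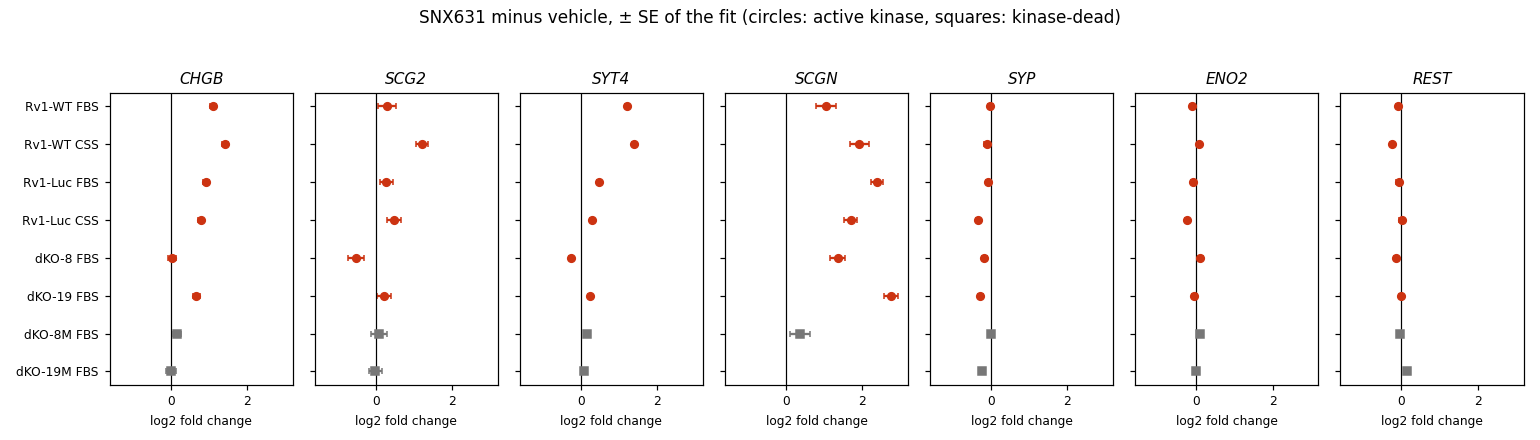
SNX631 effect on 7 of the genes as the log2 difference from vehicle with its SE, in the 8 settings. Circles are lines with an active kinase and squares kinase-dead lines, and SCGN in dKO-19M is left out for its few counts. CHGB lay at 1.10 and 1.42 in Rv1-WT, 0.93 and 0.79 in Rv1-Luc, 0.67 in dKO-19, and 0.03, 0.17 and 0.01 in dKO-8, dKO-8M and dKO-19M, and SYT4 lay below 0 in dKO-8 alone.

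ENO2 and REST were not called for the inhibitor in any setting, and INSM1, which did not pass the filter, was not tested. ENO2 had values from -0.24 ± 0.0499 in Rv1-Luc in CSS (edgeR FDR 0.000199, short of the fold limit) to 0.11 ± 0.0628 in dKO-8M (edgeR FDR 0.614). REST was likewise not called, with the value farthest from 0 in Rv1-WT in CSS, where the libraries read 103, 110 and 96.7 CPM under vehicle and 89.9, 86.2 and 84.7 CPM with SNX631 (-0.25 ± 0.0563, edgeR FDR 0.000492, short of the fold limit). In dKO-19M, REST read 48.2, 62.1 and 61.6 CPM under vehicle, the first being the library farthest from its group, and 60.3, 67.9 and 63.6 CPM with SNX631, which overlap. INSM1 held 36 counts over the 48 libraries and 0 in 33 of them. Its highest group was Rv1-WT in CSS with SNX631, with 2, 4 and 6 counts.

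Counted over the 7 members tested with an active kinase, SNX631 called 1 member in Rv1-WT in FBS, against 2.39% of all genes, and 2 in CSS, against 4.23%. It called 1 in Rv1-Luc in FBS (3.67% of all genes) and 1 in CSS (4.06%), 0 in dKO-8 (1.71%) and 1 in dKO-19 (3.41%). The 6 calls were the 5 of CHGB and the 1 of SCG2, all higher. With a dead kinase 0 of 9 members were called in dKO-8M (0.0150% of all genes) or dKO-19M (0.0900%) by edgeR, and none by DESeq2. The 9 include CHGA, which held 0 counts in the 6 dKO-19M libraries and at most 1 in each dKO-8M library, so it could not be called. SCGN held at most 8 counts in a dKO-19M library. Members at an unadjusted p under 0.05 were SCG2, SYP and REST in dKO-8 (3 of 7), SYT4 in dKO-8M (1 of 9) and SYP and REST in dKO-19M (2 of 9). DESeq2 likewise called none in dKO-8. Of the differences between SNX631 effects, no member was called between sera in Rv1-WT (0.295% of all genes) or in Rv1-Luc (0.0800%), between Rv1-Luc and Rv1-WT (0.175%) or between dKO-8 and dKO-8M (0.905%). At an unadjusted p under 0.05 these 4 comparisons held 3, 2, 0 and 1 of 7 members, and DESeq2 called 0 in each. CHGB alone was called between dKO-19 and dKO-19M (2.07%) and between dKO-19 and dKO-8 (0.885%).

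Androgen depletion was compared as CSS against FBS within each line. In Rv1-WT under vehicle ENO2 and REST moved in opposite directions. ENO2 read 141, 129 and 128 CPM in FBS and 78.4, 80.8 and 87.1 CPM in CSS, with no overlap (-0.69 ± 0.0521, edgeR FDR 3.4e-17). ENO1, the enolase of all cells, also fell in this comparison (-0.61 ± 0.0561, edgeR FDR 6.76e-13). REST read 64.3, 65.1 and 69.9 CPM in FBS and 103, 110 and 96.7 CPM in CSS, again with no overlap (0.63 ± 0.0583, edgeR FDR 5.42e-14). SCG2 was higher in CSS by 0.65 ± 0.214 (edgeR FDR 0.0098), close to the limit. CHGB was higher by 0.48 ± 0.0846 (edgeR FDR 3.35e-06), SYT4 by 0.30 ± 0.0496 (edgeR FDR 1.16e-06) and SYP lower by a log2 value of -0.36 ± 0.0618 (edgeR FDR 1.42e-06), each short of the fold limit. These were 3 calls among 9 members, against 10.9% of all genes.

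Under SNX631 the CSS cultures of Rv1-WT had 2 calls among the 7 tested members not selected on SNX631 values, against 7.83% of all genes. SCGN and SYT4 are left out of this count, since it uses treated libraries on which both were selected. CHGB was higher by 0.79 ± 0.0694 (edgeR FDR 1.46e-14) and SCG2 by 1.56 ± 0.178 (edgeR FDR 8.67e-11). REST (0.47 ± 0.0591, edgeR FDR 1.27e-09) and ENO2 (-0.50 ± 0.0520, edgeR FDR 4.05e-12) kept their directions but were short of the fold limit.

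Rv1-Luc under vehicle had no member called for depletion by edgeR (1.49% of all genes) or by DESeq2. The 4 members at an unadjusted p under 0.05 were CHGB, SYT4, SYP and ENO2. ENO2 read 116, 107 and 108 CPM in FBS and 115, 124 and 128 CPM in CSS, and REST 57.8, 63.1 and 62.8 CPM in FBS and 58.9, 59.7 and 58.8 CPM in CSS, so both genes overlapped between sera. The depletion effect differed between lines for both: by 0.84 ± 0.0718 for ENO2 (edgeR FDR 1.96e-14) and -0.69 ± 0.0820 for REST (edgeR FDR 7.38e-10), as Rv1-Luc minus Rv1-WT. They were the 2 calls among 9 members, against 8.65% of all genes. With SNX631, where 1.51% of all genes were called, SCGN in Rv1-Luc stood at -0.63 ± 0.132 in CSS against FBS, a value with no test since it uses the treated libraries on which SCGN was selected. All 12 Rv1-Luc libraries held REST between 56.0 and 63.1 CPM, with a median of 58.95, and the 6 Rv1-WT libraries in CSS lay above every other library of the series.

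**Figure D3:**
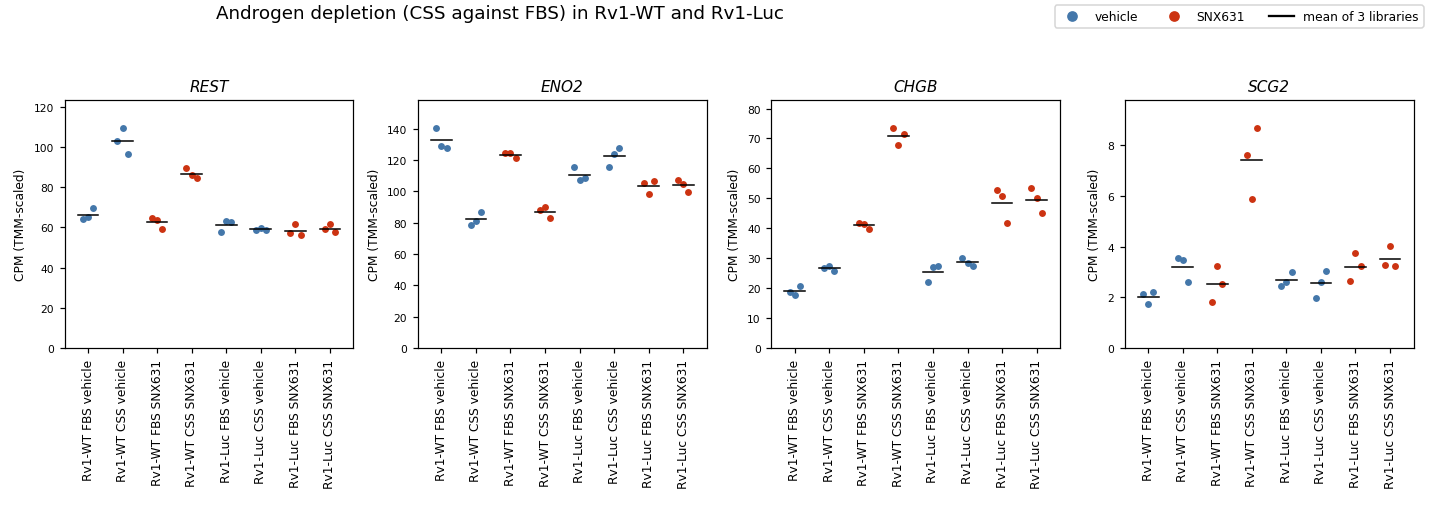
REST, ENO2, CHGB and SCG2 in FBS and CSS in Rv1-WT and Rv1-Luc, in TMM-scaled CPM from 0. Points are libraries and lines the means of 3. Under vehicle, ENO2 went from 133 to 82.1 CPM and REST from 66.4 to 103 CPM in Rv1-WT, and from 110 to 122 CPM and 61.3 to 59.1 CPM in Rv1-Luc.

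The dead form was compared with the active form of the same kinase. Each form was a single line, so kinase activity and other differences between the lines cannot be told apart. The FDR values measure only the spread between libraries of these lines. With CDK19, 4 members were lower with the dead form (dKO-19M) under vehicle, against 3.87% of all genes lower and 7.60% called either way: CHGB, SYP, SYT4 and SCGN. Vehicle libraries of dKO-19 also entered the fold changes on which SYT4 and SCGN were selected. SYP read 71.9, 66.1 and 75.2 CPM in dKO-19 and 46.1, 38.2 and 36.8 CPM in dKO-19M (-0.82 ± 0.0587, edgeR FDR 9.01e-18). CHGB was lower by -1.32 ± 0.115 (edgeR FDR 1.68e-14) and SYT4 by -1.64 ± 0.0690 (edgeR FDR 5.07e-28), and SCGN went from 1.20 ± 0.145 to 0.239 ± 0.0521 CPM (-2.29 ± 0.362, edgeR FDR 6.39e-07). For all 4 genes the 3 dKO-19M libraries were below the 3 dKO-19 libraries. Without dKO-19M replicate 1, the library farthest from its group, the values were -1.32 for CHGB, -0.93 for SYP, -1.57 for SYT4 and -2.24 for SCGN, all still called by edgeR. ENO2 did not differ detectably (28.8 ± 1.18 against 28.6 ± 1.29 CPM, 95% interval of the log2 difference -0.13 to 0.11). SCG2 was at 0.26 ± 0.181 (edgeR FDR 0.297). SNX631 in dKO-19 had values of the opposite sign to the dead form for CHGB (0.67), SYT4 (0.24) and SCGN (2.76). For SYP the sign was the same (-0.28). This difference in sign was not tested.

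Under SNX631, 2 of the 7 members not selected on SNX631 values were called lower in dKO-19M, against 4.04% of all genes lower and 7.18% either way. CHGB stood at -1.98 ± 0.113 (edgeR FDR 4.76e-22) and SYP at -0.78 ± 0.0622 (edgeR FDR 5.28e-16). SYT4 (39.2 ± 2.30 against 11.4 ± 0.886 CPM) and SCGN (8.12 ± 0.719 against 0.137 ± 0.165 CPM) are given as levels only, since they share the treated libraries in which these genes had stood out.

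With CDK8, 2 members were lower with the dead form (dKO-8M) under vehicle, against 4.07% of all genes lower and 7.03% called either way. SYT4 was lower by -0.68 ± 0.0632 (edgeR FDR 1.51e-13) and SCGN by -0.90 ± 0.253 (edgeR FDR 0.00405), with 3 of 3 libraries below those of dKO-8 for both. Vehicle libraries of dKO-8 also entered the fold changes on which both genes were selected. The SCGN call was lost without any of 3 of the 6 libraries (FDR 0.0265 to 0.0499). CHGB stood at -0.39 ± 0.106 (edgeR FDR 0.00303, short of the fold limit), and SYP was at 46.7 ± 1.91 against 46.5 ± 1.11 CPM. Under SNX631, where 5.05% of all genes were called, SCGN was at 1.19 ± 0.123 against 4.45 ± 0.576 CPM, levels that again use the treated libraries. The transcript of the kinase put back was not equal within pairs: under vehicle CDK19 stood at 510 CPM in dKO-19 and 332 CPM in dKO-19M, and CDK8 at 68.7 CPM in dKO-8 and 123 CPM in dKO-8M. Counts per gene do not separate the transcript put back from that of the knocked-out gene. The part of these levels in the differences was not tested.

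**Figure D4:**
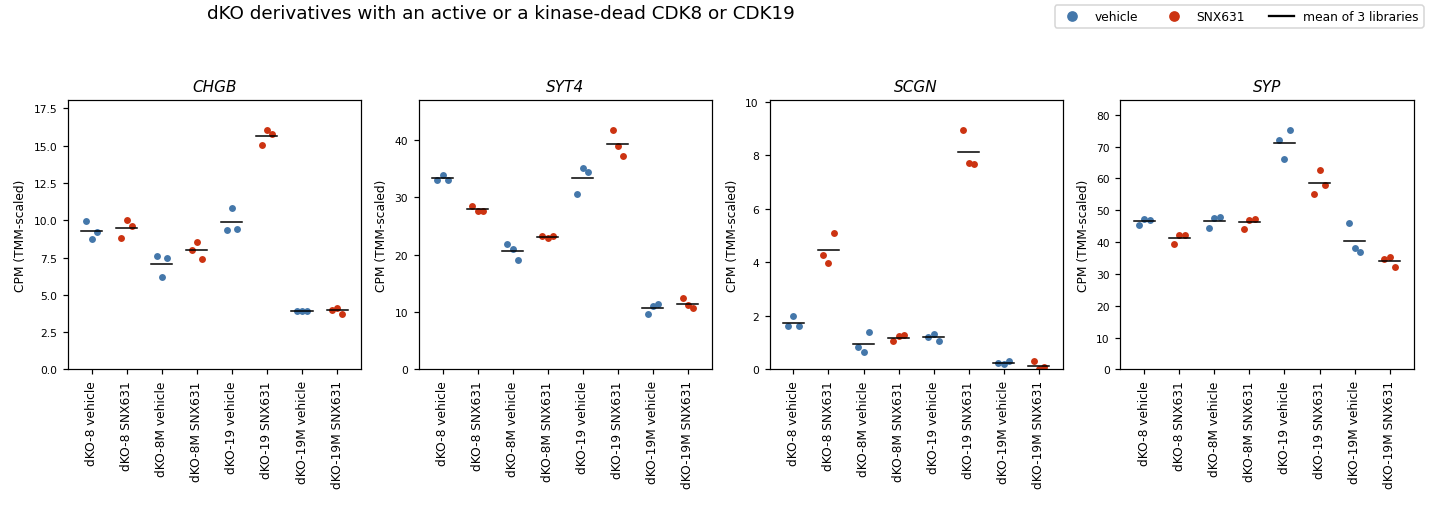
CHGB, SYT4, SCGN and SYP in the 4 dKO derivatives with vehicle or SNX631, in TMM-scaled CPM from 0. Points are libraries and lines the means of 3. Of the 4 lines, dKO-19M had the lowest mean of each gene under either treatment, for SYT4 10.7 CPM under vehicle and 11.4 CPM with SNX631.

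Between lines, the active derivatives differed in SYP. dKO-19 was above dKO-8 under vehicle (71.1 ± 4.63 against 46.5 ± 1.11 CPM, 0.61 ± 0.0590, edgeR FDR 6.57e-13), the 1 call among 9 members, against 6.51% of all genes. Scaled by library size alone the SYP value was 0.54, short of the fold limit. CHGB (0.08 ± 0.102) and SYT4 (0.00 ± 0.0604) did not pass the test (edgeR FDR 0.598 and 0.982).

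Rv1-Luc against Rv1-WT in FBS under vehicle had 2 calls among the 7 members that did not pass the filter through Rv1-WT alone, against 17.8% of all genes. SYT4 was lower (-0.93 ± 0.0515, edgeR FDR 4.9e-23) and SCGN higher by 0.78 ± 0.249 (edgeR FDR 0.00711). Both genes were selected on fold changes that use these vehicle libraries. The SCGN call was lost without any of 4 of the 6 libraries (FDR 0.0173 to 0.0563). SCG5 went from 8, 8 and 11 counts in Rv1-WT to 6, 6 and 3 in Rv1-Luc, a value with no test. CHGB and SYP were higher by 0.42 ± 0.0825 and 0.35 ± 0.0581, short of the fold limit.

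A gap found after the values were seen lay between the dKO derivatives and both other lines. In 24 dKO libraries ENO2 ran from 24.1 to 30.5 CPM with a median of 27.8, and in 24 libraries of Rv1-WT and Rv1-Luc from 78.4 to 141 CPM with a median of 107. SYT4 ran from 9.57 to 41.7 CPM in the former and from 62.4 to 411 CPM in the latter, and CHGB from 3.75 to 16.04 CPM and from 17.7 to 73.6 CPM. None of these ranges overlapped, with active and dead kinases alike. In FBS under vehicle the mean of the 4 derivatives was below that of both other lines by a log2 value of -2.14 ± 0.0326 for ENO2, -1.999 ± 0.0340 for SYT4 and -1.63 ± 0.0570 for CHGB. Over all genes 23.0% were called in this comparison, 15.7% of them lower and 7.24% higher as shares of all genes tested. SCGN stood at -0.98 ± 0.176 and SYP at -0.53 ± 0.0357, and REST (0.02 ± 0.0359) and SCG2 (0.05 ± 0.127) stood near 0. CHGA held at most 3 counts in each dKO library, as given above.

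REST and its partners were followed beside the members. SRRM4, the splicing factor that yields the truncated form of REST in neuroendocrine cells, ran from 91.3 to 313 CPM over the 48 libraries, with a median of 152. SRRM4 was higher in Rv1-Luc than in Rv1-WT (0.79 ± 0.0597, edgeR FDR 1.02e-15) and higher in dKO-19 than in dKO-8 (0.84 ± 0.0610, edgeR FDR 7.19e-16). RCOR1, a corepressor of REST, ran from 68.7 to 98.5 CPM and was called in none of the comparisons. Counts per gene do not show which splice form of REST was made. Of 14 listed transcription factors of neuroendocrine and neuronal cells, 8 had a mean of at least 1 CPM in Rv1-WT. This number was 6 in Rv1-Luc, 3 in dKO-8, 7 in dKO-8M, 3 in dKO-19 and 4 in dKO-19M. In Rv1-WT in FBS under vehicle ONECUT2 stood at 72.7 ± 4.16 CPM, HES6 at 28.3 ± 3.12, POU3F2 at 17.4 ± 1.39 and SOX2 at 3.63 ± 1.06. Over all libraries NEUROD1 reached 0.119 CPM at most and FOXA2 0.372 CPM.

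Besides the members, 86 genes of the same pathways were listed (prohormone processing, peptides, exocytosis, transcription factors, the REST complex, neuronal genes and relatives of the members), and 70 of them were tested. SNX631 called 3 higher and 1 lower in Rv1-WT in each serum (5.71% of the 70, against 2.39% of all genes for FBS and 4.23% for CSS). In Rv1-Luc it called 4 higher and 2 lower in FBS (8.57% against 3.67%) and 3 higher and 2 lower in CSS (7.14% against 4.06%). It called 0 higher and 2 lower in dKO-8 (2.86% against 1.71%), and 2 higher and 1 lower in dKO-19 (4.29% against 3.41%). With a dead kinase edgeR and DESeq2 called 0 of the 70 in either line, and 11 in dKO-8M and 8 in dKO-19M had an unadjusted p under 0.05. Over the 70 genes the median log2 value stood at 0.06 for Rv1-WT in FBS and at -0.08 for dKO-8, against 0.00 over all genes in both. RAB27B, a small GTPase of vesicle docking, rose in 3 of the 6 settings, up to 0.85 ± 0.0648 in dKO-19 (39.2 to 70.7 CPM, edgeR FDR 2.78e-16). ADCYAP1, which encodes the peptide PACAP, rose in 2 settings, up to 1.26 ± 0.226 in Rv1-Luc in CSS (edgeR FDR 1.59e-05), and CALCB, a calcitonin gene-related peptide, in Rv1-WT in FBS (0.83 ± 0.119, edgeR FDR 2.7e-07). Over the 6 settings ADCYAP1 ran from -0.72 to 1.26 and CALCB from -0.42 to 0.83. HES6, a transcription factor of neuronal differentiation, fell in 4 of the 6 settings, by up to 0.82 on the log2 scale in dKO-19 (-0.82 ± 0.0924, edgeR FDR 3.27e-09). VGF, a granin-like peptide precursor, fell in 2, with -0.63 ± 0.0517 in Rv1-Luc in FBS (409 to 264 CPM, edgeR FDR 1.08e-14). CALCA fell in Rv1-WT in CSS (-0.70 ± 0.133, edgeR FDR 3.83e-05) and ENO3 in Rv1-WT in FBS (-0.60 ± 0.160, edgeR FDR 0.00541). Over the 6 settings HES6 ran from -0.82 to 0.18, VGF from -0.63 to 0.02, CALCA from -1.46 to 0.47 and ENO3 from -0.60 to 0.08.

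Depletion called 4 of the 70 higher and 8 lower in Rv1-WT under vehicle (17.1% against 10.9% of all genes), and 1 higher and 0 lower in Rv1-Luc (1.43% against 1.49%). CALCA, which encodes calcitonin, rose from 5.37 to 19.9 CPM in Rv1-WT (1.89 ± 0.151, edgeR FDR 3.15e-16) and CALCB by 0.94 ± 0.117 (edgeR FDR 9.54e-10). TUBB3, a neuronal tubulin, fell from 33.1 to 10.0 CPM (-1.72 ± 0.0811, edgeR FDR 8.16e-26) and RAB3A, a GTPase of synaptic vesicles, from 22.5 to 10.2 CPM (-1.14 ± 0.0862, edgeR FDR 3.74e-17). The depletion effects of CALCA (-2.28 ± 0.356, edgeR FDR 5.43e-07), TUBB3 (1.41 ± 0.102, edgeR FDR 3.63e-17) and RAB3A (1.17 ± 0.109, edgeR FDR 3.2e-13) differed between Rv1-Luc and Rv1-WT, given as Rv1-Luc minus Rv1-WT.

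Against the active kinase, dKO-19M had 5 of the 70 genes higher and 14 lower under vehicle, and 6 higher and 13 lower with SNX631 (27.1% in both, against 7.60% and 7.18% of all genes). dKO-8M had 2 higher and 7 lower under vehicle, and 4 higher and 5 lower with SNX631 (12.9% in both, against 7.03% and 5.05%). The median over the 70 was -0.17 in dKO-19M under vehicle. CPLX2, a complexin that clamps vesicle fusion, was lower there (55.2 to 10.5 CPM, -2.39 ± 0.0596, edgeR FDR 4.71e-39), as were VGF (153 to 31.9 CPM, -2.26 ± 0.0608, edgeR FDR 8.61e-36) and SYN1, a synapsin (-1.85 ± 0.207, edgeR FDR 7.42e-11). NKX2-1 was higher (0.405 to 1.33 CPM, 1.70 ± 0.355, edgeR FDR 0.000105). In dKO-8M with SNX631, DOC2B, a calcium sensor of exocytosis, stood at 6.84 CPM against 0.360 CPM in dKO-8 (4.20 ± 0.254, edgeR FDR 1.34e-20). Between Rv1-Luc and Rv1-WT, 7 of the 70 were higher and 14 lower (30% against 17.8% of all genes), among them DDC, the decarboxylase of dopamine and serotonin synthesis (-1.98 ± 0.153, edgeR FDR 7.31e-17), SOX2 (-2.38 ± 0.296, edgeR FDR 9.97e-10) and, in the other direction, CPLX2 (1.19 ± 0.0480, edgeR FDR 3.41e-29). The 70 hold genes that are high in Rv1-WT alone, such as MYCN and ST18. Their means there were 1.91 and 0.754 CPM, against at most 0.377 and 0.0981 CPM in any Rv1-Luc library. Such genes passed the filter through Rv1-WT, which fixed their direction, and both shares include them.

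The members did not form a single pattern over the 16 group means of log2(CPM + 1). CHGB and SYT4 ran closest together (Pearson r = 0.92), followed by SCG5 and REST (0.88) and by CHGB and ENO2 (0.83), while SYP and REST stood at -0.30. SCG5 held only 2 to 24 counts in a library, its values are uncertain, and it passed the filter through Rv1-WT. Both SCG5 and REST were highest in Rv1-WT in CSS under vehicle. The groups share lines and library depth, so all these correlations are descriptions. Among 14057 genes with a mean of at least 1 CPM, those most like CHGB were DYNLT3 (0.98), ZSCAN23 (0.97) and VPS13A (0.97), and those like SYT4 included EGFR and FZD4 (0.97 each). ENO2 was closest to RAB3C, IFFO1 and ZSCAN10 (0.99 each), REST to PAWR and BIRC2 (0.97 each) and CDC42BPA (0.95), SYP was close to NKAIN1 (0.96) and CPLX1 (0.95), and CHGA, whose level follows that of Rv1-WT alone, was closest to DDX53 (1.00), NHSL1 and NDUFV2P1 (0.99 each). SCGN had no gene above ABHD11 (0.86), PLA2G4F and BANK1 (0.84 each), SCG2 none above ITPRID2-DT (0.87), TNFSF15 (0.86) and PTCD2 (0.85), and SCG5 was nearest to THAP1 (0.95), STAG2 (0.94) and DNAAF4-CCPG1 (0.93).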

How the data were processed

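Total RNA of 48 cultures was sequenced from stranded libraries. The deposited table holds expected counts per gene, which the authors made from the reads with shared reads divided: 81.6% of nonzero values are whole. The submitters' processing notes list cutadapt 2.8, STAR 2.7.2b, featureCounts, Subread 2.0.3 and the builds GRCh38.p13 and GRCm39 without their roles. Computed here were all levels and tests. Counts were rounded, 2 transgene rows left out and low genes removed with edgeR's filterByExpr (at least 10 counts, and 15 in total), which left 20009 of 61815. TMM factors ran from 0.911 to 1.07. One fit of all 48 libraries (edgeR 4.0.16, limma 3.58.1, R 4.3.3) gave 32 residual degrees of freedom, a biological coefficient of variation of 4.20% and two-sided quasi-likelihood tests in 25 comparisons, with Benjamini-Hochberg adjustment over all genes. DESeq2 1.42.0 was an alternative. Groups came from the sample titles. The paper describes at least 3 biological replicates per condition. Whether these were separate cultures from different days is not said, so p-values measure only the spread between libraries, part of which may be technical. At 13.2 to 31.5 M counts a library, counting error weighs most in the members with few counts (CHGA, SCG5, SCG2, SCGN and INSM1). Coordinates come from GENCODE v29, whose release differs from that of the table.

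The members and lists were chosen with earlier results of these data known. All 10 members are named. Of the pathway lists up to 8 called genes per family of comparisons could be named, those with the largest change among genes with a mean of at least 1 CPM and groups that do not overlap, and ENO1, NEUROD1, FOXA2, SRRM4 and RCOR1 always. Genes most like a member are the 3 with the highest r. Some genes that these rules name are not reported here. The script was tested on simulated data.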

Additional observations from a re-analysis of the deposited data

Results flagged for a closer look

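4 differences between effects passed the test. For CHGB, the SNX631 effect in dKO-19 exceeded that in dKO-19M by 0.66 and that in dKO-8 by 0.64 on the log2 scale. For the androgen depletion effect under vehicle, Rv1-Luc minus Rv1-WT was 0.84 for ENO2 and -0.69 for REST. Their errors and edgeR FDR values are given in the report.

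In 3 genes every treated library lay on one side of its vehicle libraries in some lines and on the opposite side in another, and as sets these differences were not tested. SCG2 had SNX631 values of 1.21 in Rv1-WT in CSS and 0.49 in Rv1-Luc in CSS, and -0.52 in dKO-8. SYT4 had 1.21 and 1.39 in Rv1-WT in FBS and CSS, 0.48 and 0.30 in Rv1-Luc in FBS and CSS and 0.24 in dKO-19, and -0.26 in dKO-8. ENO2 had 0.10 in dKO-8, and -0.11 in Rv1-WT in FBS, -0.092 in Rv1-Luc in FBS and -0.24 in Rv1-Luc in CSS. For SCG2 the effect in dKO-8 was tested against that in dKO-19 (dKO-19 minus dKO-8 0.73 ± 0.282, edgeR FDR 0.133) and in dKO-8M (dKO-8 minus dKO-8M -0.60 ± 0.299, edgeR FDR 0.269). Groups of 3 were not tested gene by gene for a sample far from the others.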

How the results depend on the processing

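No result changed direction. The 6 member calls for SNX631 with an active kinase became 12 at an FDR under 0.05 with no fold limit, the 0 with a dead kinase 1 (SYP in dKO-19M), the 6 for androgen depletion 16, the 5 between lines 9 and the 4 differences of effects 8. Tested against a 1.5-fold change with glmTreat, SNX631 with an active kinase gave 5, dead against active kinase 9, depletion 2, between lines 2 and differences 1. The calls lost there were CHGB in dKO-19 and both of its effect differences, ENO2, REST and SCG2 for depletion in Rv1-WT under vehicle and SCGN in Rv1-Luc with SNX631, SYT4 and SCGN in dKO-8M, SCG5 and SCGN in Rv1-Luc against Rv1-WT, SYP in dKO-19 against dKO-8, and the REST depletion difference. Counts for depletion and for dead against active kinase include SCGN and SYT4 in treated libraries, and those between lines CHGA and SCG5, which the report gives as values with no test. Pathway list calls went from 24 to 126 and 8 for SNX631, from 26 to 109 and 11 for depletion and from 56 to 125 and 35 for dead against active kinase, under these settings in turn. The thresholds themselves set these counts. Leaving out a library gave 6 to 6, 0 to 0, 5 to 7, 10 to 11 (dead against active, 11 in all), 3 to 5 and 3 to 4 member calls, and 21 to 25, 23 to 27 and 53 to 58 pathway calls. Calls between lines fell to 3 without Rv1-WT FBS vehicle replicate 2 or 3 or Rv1-Luc FBS vehicle replicate 1 or 3. Of 32 called member differences, 19 kept their call under all settings run and 25 under all but glmTreat. Among the 19 are CHGA in Rv1-Luc against Rv1-WT, and SCGN and SYT4 in dKO-19M against dKO-19 with SNX631. SCGN in dKO-8M against dKO-8 with SNX631 is also among the 19. The 32 further hold SCG5 in Rv1-Luc against Rv1-WT, and SCGN for depletion in Rv1-Luc with SNX631. The report gives all of these with no test, so their calls are not counted as support.

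The SCG2 call for depletion in Rv1-WT under vehicle was lost in DESeq2 (FDR 0.0118) and without any of 5 of its 6 libraries (FDR 0.016 to 0.0559), and that of SCGN in dKO-8M against dKO-8 under vehicle without any of 3 libraries (FDR 0.0265 to 0.0499). SYP in dKO-19 against dKO-8 lost the fold limit without dKO-19 vehicle replicate 3 (0.57). The cause of these losses was not tested. Replicate numbers did not pair the samples: in none of 18 comparisons did all 3 same-numbered pairs correlate above 0.1 (r from -0.12 to 0.26). With the replicate block, member calls were 6, 0, 5, 11, 5 and 4 and pathway calls 24, 26 and 56, and the call lost was SCG2 (FDR 0.0107). Depth limits INSM1, SCG5 and CHGA outside Rv1-WT most.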
